A study of Bos taurus with 56 samples.

Results

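Nguni and Bonsmara bulls that ate the low energy feed were compared by the RNA of their Longissimus dorsi muscle. The libraries were chosen from the breed and diet that the labels give: 18 of the 42 libraries with counts were labelled low energy, and the labels describe 56 samples in all. Titles join a stem and a library number, and the 3 libraries of each stem were summed. Each stem was taken for 1 animal, although the labels do not say so, which gives n = 3 Nguni (N1, N33 and N215) and n = 3 Bonsmara (B11, B51 and B126). Were stems not separate bulls, the p-values would describe spread that could be technical only. Both breeds were fed for 120 days in a feedlot on 10.9 MJ of metabolizable energy per kg of feed. The labels call the Nguni a Sanga breed and the Bonsmara a Sanga-related one. A further 8 animals, 5 Nguni and 3 Bonsmara, received 12.0 MJ per kg and served as a second look at the same breed difference. Age is not given in the sources used here. Muscle was flash-frozen, and RNA was isolated with TRIzol and prepared with the Illumina TruSeq kit.

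As background, the Nguni is an indigenous southern African breed of small to medium frame, and the Bonsmara is a composite beef breed made in South Africa by crossing indigenous Afrikaner cattle with British beef bulls. The Longissimus dorsi, which runs along the spine and gives the loin cuts, is a mixed muscle with a large share of fast-twitch fibres. Feed energy beyond maintenance goes into protein growth and into fat laid down between and within muscles, and breeds differ in how early they reach the fattening stage.

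The counts carry Ensembl bovine gene IDs, and none of the 20791 IDs could be paired with a gene name (0 IDs matched the reference table of 37063 genes). Lists of fibre type, lipid, glycolytic, insulin signalling, stress, immune and other cell type genes therefore could not be measured, and the identity of the tissue could not be checked against its markers. Genes are given by ID, without function. In bulk muscle RNA, fewer cells of a type and less RNA per cell cannot be told apart.

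The 6 animals had from 34456677 to 49599407 counts each, and the 18 libraries from 9299546 to 21756322. Genes with at least 1 count numbered 15393 in N1, 14324 in N33 and 16132 in N215. The Bonsmara animals were closer to each other, with 15299 in B11, 15487 in B51 and 15546 in B126. The mean was 15283 ± 909 genes in Nguni and 15444 ± 129 in Bonsmara (SD, n = 3 each), a difference within the spread (exact permutation test, two-sided, p = 0.8). With 3 animals against 3, this test cannot give a p below 0.1.

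Several libraries and labels stood apart before any breed comparison. Over the 13219 genes tested, with values as log2(CPM + 0.5), where CPM, the read count scaled to a common sequencing depth, is edgeR's cpm value on TMM-scaled library totals, the library N215_2 correlated at only 0.905 and 0.909 with N215_1 and N215_3, while those correlated at 0.992 with each other. The other 16 within-animal pairs of low energy libraries had r from 0.931 to 0.992, with a median of 0.980. Among high energy animals, N008_3 was left out together with N215_2 as an alternative planned with earlier results known. N33 detected the fewest genes, and its libraries correlated at 0.900 to 0.950 with the Bonsmara libraries, whereas those of N1 correlated at 0.930 to 0.980. The labels and the deposited tables disagree on a pair of animals. The tables place N1, labelled low energy, with the high energy Nguni, and place N11, labelled high energy, with those on low energy. The labels were followed here.

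**Figure D1:**
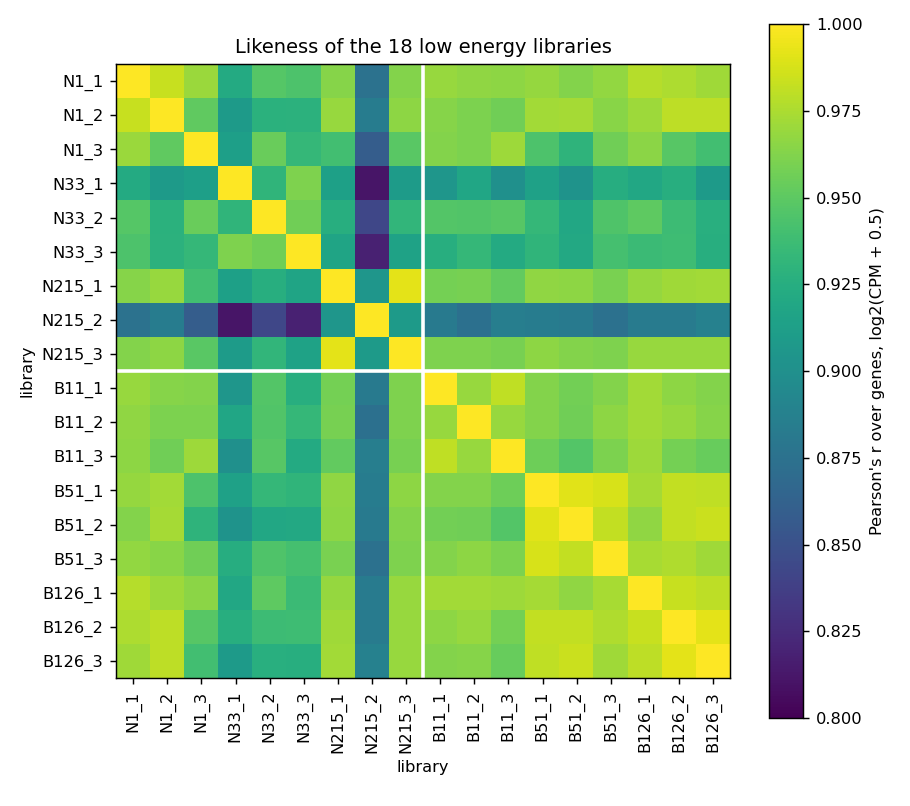
Pearson's r over 13219 genes between each pair of the 18 low energy libraries, on log2(CPM + 0.5), Nguni first and Bonsmara after the white lines. The row of N215_2 is the darkest, with r between 0.811 and 0.909 with every other library, and the square of the 9 Bonsmara libraries is bright throughout, with r of at least 0.969 within each animal.

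N1 was not nearest to its own breed and diet. Its r with the 3 Bonsmara animals on low energy was 0.975 to 0.983, and with the other 2 Nguni on low energy 0.947 to 0.959. With the 5 Nguni on high energy its r was 0.938 to 0.978. N11, for its part, had r of 0.930 to 0.975 with the 3 Nguni labelled low energy. With the other 4 Nguni on high energy, its own label, r was 0.921 to 0.981. It was 0.957 to 0.975 with the 3 Bonsmara on low energy and 0.968 to 0.984 with the 3 on high energy. These are correlations over genes of the same libraries and are descriptions with no test.

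No gene differed between the breeds on low energy by edgeR's quasi-likelihood test at an adjusted p under 0.05 (0 of 13219 genes, 0.0%), and the smallest adjusted p was 0.956. At an unadjusted p under 0.05 there were 478 genes (3.62%), fewer than the 661 that this threshold would give with no difference at all. Of these, 283 were higher in Nguni (2.14%) and 195 lower (1.48%). Without N215_2 and N008_3, the count was 669 of 12949 genes, 418 higher and 251 lower, with 0 at an adjusted p under 0.05. DESeq2 called 1 of 17834 genes (0.00561%), and limma voom on single libraries with the animal as a random effect called 1 of 11340 (0.00882%). Both genes are described further on. The log2 fold change, here always Nguni minus Bonsmara, had a median size of 0.28 and a median standard error of 0.39.

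How large a difference these 6 animals could hide depended on the level of the gene. The 95% interval of the log2 fold change, taken gene by gene, extended a median of 0.83 to either side. It lay wholly within 2-fold either way for 5275 genes (39.9%). Under 1 CPM, only 59 of 2757 genes (2.14%) were bounded that closely, with a median standard error of 0.68. Between 1 and 10 CPM, 2091 of 5566 genes (37.6%) were, and between 10 and 100 CPM, 2737 of 4216 (64.9%). The share was 58.9% of 599 genes at 100 to 1000 CPM and 43.2% of the 81 genes above that. For the genes bounded in this way, the data hold the breed difference on low energy below 2-fold at the level of a single interval. For the others, the interval reached past 2-fold on at least one side, so a difference of that size was not bounded.

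Read animal by animal, 570 genes had all 3 Nguni above all 3 Bonsmara (4.31% of those tested), and 617 had all 3 below (4.67%). Of these, 145 were over 2-fold higher and 129 over 2-fold lower. With no breed difference, 3 animals against 3 would separate about 5% of genes in each direction, and both shares lie below that. Non-overlap in the 478 genes at an unadjusted p under 0.05 was found for 184 of the 283 higher and 135 of the 195 lower ones. The others reached that p with overlapping breeds. When single libraries were compared, all 9 Nguni libraries were above all 9 Bonsmara libraries for 15 genes and below them for 5, together 0.151% of the genes tested. Libraries of an animal share their source, so these are not 9 replicates. Of those 20 genes, 16 were at an unadjusted p under 0.05, which choosing them for separated libraries largely fixed. The same sign on high energy was found for 17, beside 51.9% of all genes tested, and 0 had breeds that also failed to overlap there.

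Differences with a p under 0.05 were not spread evenly over expression levels. Among the 4896 genes with a mean of at least 10 CPM, 156 were higher in Nguni and 49 lower, so that 76.1% were higher. Among the 8323 genes under 10 CPM, 127 were higher and 146 lower. The median log2 fold change was 0.07 in the first class and -0.01 in the second. Size factors of DESeq2 in place of TMM raised the share among the more abundant genes to 84.1% and moved the median of all genes from 0.03 to 0.05. Leaving out N33 brought it to 64.4% (58 higher and 32 lower) and the class median to -0.02. The share was 55.5% without B11 (116 and 93) and 54.5% with limma voom and quality weights (230 and 192). Without N215_2 and N008_3, in contrast, it was 88.8% (294 and 37). In each of these fits more of the abundant genes of small p were higher than lower, but the size of that share rested on single animals and on the weights. The class median did change sign without N33.

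**Figure D2:**
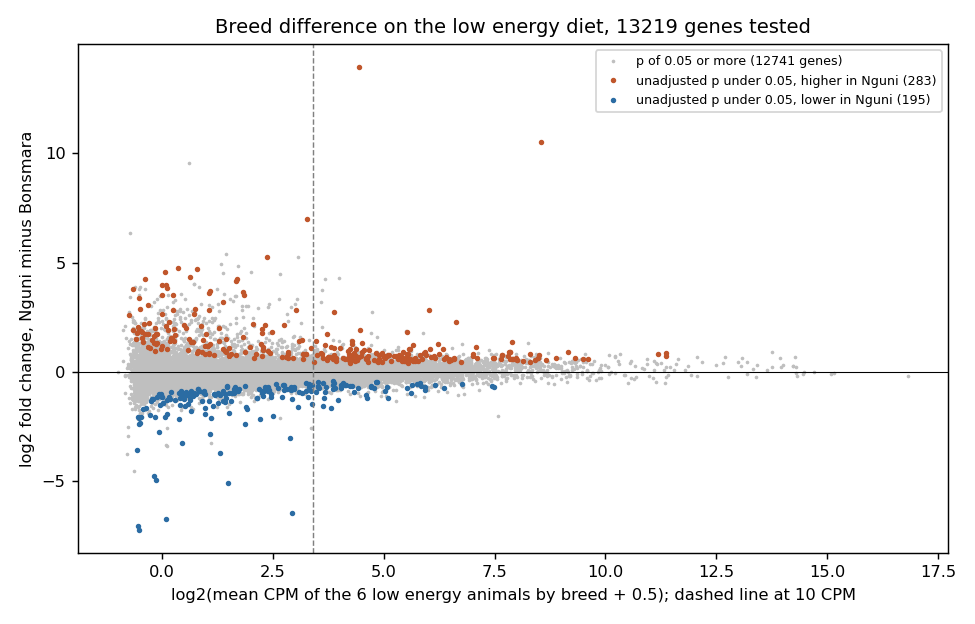
Each point is 1 of the 13219 genes tested, with its mean level on the low energy diet as log2(CPM + 0.5) against its log2 fold change, Nguni minus Bonsmara. Coloured points have an unadjusted p under 0.05 (283 higher, orange; 195 lower, blue). To the right of the dashed line at 10 CPM, 156 coloured points lie above 0 and 49 below.

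Over all levels, the split of higher and lower genes turned with the choice of fit. It was 59.2% higher as reported and 67.0% with size factors, but 48.2% with limma voom and quality weights. It was 42.4% without B11 and 46.3% without B126. No direction is therefore given for the breed difference over all genes.

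The balance of large fold changes turned when 2 libraries, N215_2 and N008_3 of a high energy Nguni, were left out together. There were 679 genes over 2-fold higher in Nguni (5.14%) and 295 over 2-fold lower (2.23%). Without these libraries there were 294 higher and 374 lower. For these counts N215_2 was not left out alone. Of the 679, 263 were still over 2-fold higher, 302 were under 2-fold and 114 no longer had counts enough to be tested. Of the 295, 245 were still over 2-fold lower. In N215_2, 381 genes were at least 8-fold above the mean log2 level of the other libraries of that animal. Of the 381, 282 were among the 679, which is 41.5% of the 679. The median log2 fold change of the 381 was 1.53 with all libraries and -0.26 without N215_2 and N008_3 (338 genes tested). Since they were picked for their level in N215_2, a lower value was fixed by the choice. Only 23 of the 381 had an unadjusted p under 0.05. Of the 478 genes of small p, 385 were at an unadjusted p under 0.05 without N215_2 and N008_3 as well, and 17 were not tested.

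The Nguni animals differed more among themselves than the Bonsmara did. The median over genes of the SD between animals, on log2(CPM + 0.5), was 0.398 in Nguni and 0.230 in Bonsmara on low energy (n = 3 each). It was 0.370 in the 5 Nguni and 0.248 in the 3 Bonsmara on high energy. The SD was larger in Nguni for 71.5% of genes. With N215_2 and N008_3 left out before filtering and scaling (12949 genes), it was so for 69.0%, and the low energy medians were 0.366 and 0.232. A median SD tends to be lower with fewer animals, so values from 2, 3 and 5 animals are not on one scale. Of the pairs of Nguni, that without N33 had the lowest median SD, 0.253, against 0.325 without N215 and 0.419 without N1. Among Bonsmara, the value was 0.127 without B11, 0.207 without B51 and 0.233 without B126. The difference in spread between the breeds was not tested, since each breed gives only 3 animals.

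Whole profiles gave the same picture. Correlation between animals was 0.911 to 0.959 within Nguni (3 pairs), 0.971 to 0.986 within Bonsmara (3 pairs) and 0.947 to 0.983 between the breeds (9 pairs). N1 and N215 each correlated best with a Bonsmara (N1 with B11, 0.983, and N215 with B126, 0.954), and N33 with N1 (0.959). Breed took 17.7% of the variance of the 6 profiles. The 10 ways of dividing the animals 3 and 3 gave a median of 19.2%, and 8 of them gave as much as the breeds did (exact permutation test, p = 0.8, where 0.1 is the smallest possible). Without N215_2 the share was 20.1% (exact permutation test, p = 0.4).

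The animals that stood alone were N33 and N215. Among 10462 genes with at least 1 CPM, N33 was over 2-fold above all 5 other animals for 381 genes and over 2-fold below them for 639. N215 was above for 390 and below for 201. Each other animal had from 8 to 33 genes on either side. With N215_2 left out (10265 genes), N215 was above for only 27 genes, while N33 was still above for 353 and below for 574. N33 was also the most extreme Nguni for 194 of the 283 genes higher in Nguni at an unadjusted p under 0.05 and for 127 of the 195 lower ones. N1 was so for 27 and 25 genes. N33 was also the animal with the fewest genes detected (14324), and the part of this in the breed differences was not tested.

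The genes given by ID are the 2 with the smallest p in each direction, those that another test called, and 1 with counts in every Bonsmara and in no Nguni. ENSBTAG00000017661.5 had the smallest p of the genes higher in Nguni. Its level was 53.3 CPM in N1, 3.88 in N33 and 16.9 in N215, against 4.49 in B11, 3.63 in B51 and 3.13 in B126. N1 and N215 lay above every Bonsmara, but N33 lay below B11, so the breeds overlapped. Its libraries ran from 39.1 to 70.9 CPM in N1, 2.23 to 5.44 in N33 and 15.5 to 18.8 in N215. Those of B11 ran from 2.05 to 6.11 CPM. The log2 fold change was 2.72 ± 0.67 (SE), with an interval of 1.28 to 4.17 and an edgeR adjusted p of 0.956. It was 1.47 without N1 and 1.23 under the tables' placing of N1 and N11. On high energy the 5 Nguni had from 2.53 to 8.55 CPM, median 5.50, and the Bonsmara 3.24, 2.70 and 2.84. The high energy log2 fold change was 0.81 ± 0.59, and the test of the difference between the diets gave 1.92 ± 0.85 (edgeR adjusted p = 0.855). The 2 highest levels of this gene among all 14 animals were therefore those of N1 and N215.

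ENSBTAG00000023823.1 was higher in all 3 Nguni. It stood at 19.3 CPM in N1, 60.9 in N33 and 22.1 in N215, and at 7.08, 11.6 and 8.60 in B11, B51 and B126. The breeds did not overlap, and N33 was far above the other Nguni. Libraries varied more for this gene, from 35.4 to 107 CPM in N33 and from 4.47 to 24.6 in B51. The log2 fold change was 1.91 ± 0.49, with an interval of 0.86 to 2.95 and an edgeR adjusted p of 0.956, and 1.18 without N33. On high energy the breeds overlapped, with 10.7 to 36.2 CPM in Nguni (median 21.4) and 13.4, 12.0 and 18.2 in Bonsmara, and a log2 fold change of 0.57 ± 0.43. The difference between the diets was 1.34 ± 0.63 (edgeR adjusted p = 0.855).

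Of the genes lower in Nguni, ENSBTAG00000006896.5 had the smallest p. It was at 6.91 CPM in N1, 5.91 in N33 and 9.29 in N215. The Bonsmara had 20.1 CPM in B11, 19.7 in B51 and 10.4 in B126. Every Nguni lay below every Bonsmara, though N215 and B126 were close. The log2 fold change was -1.18 ± 0.30, with an interval of -1.83 to -0.53 and an edgeR adjusted p of 0.956. On high energy the values overlapped at 7.62 to 9.40 CPM in Nguni (median 8.18) and 14.4, 8.68 and 7.57 in Bonsmara, with a log2 fold change of -0.28 ± 0.26. The 8 Nguni of both diets thus kept to a range of 5.91 to 9.40 CPM, and the spread of the gene lay in the Bonsmara.

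ENSBTAG00000017528.2 was a low gene that stood out through 1 animal. Nguni had 0.509 CPM in N1, 0.175 in N33 and 0.159 in N215. Bonsmara had 0.833 in B11, 7.90 in B51 and 2.30 in B126. The breeds did not overlap, but the Bonsmara animals differed widely among themselves, with B51 the highest. The log2 fold change was -3.69 ± 0.95, with an interval of -5.73 to -1.65 and an edgeR adjusted p of 0.956, and -2.47 without B51. On high energy the Nguni ranged from 0.0214 to 0.633 CPM (median 0.321) and the Bonsmara had 0.294, 0.714 and 0.631, with a log2 fold change of -0.88 ± 0.79. The difference between the diets was -2.81 ± 1.22 (edgeR adjusted p = 0.855).

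**Figure D3:**
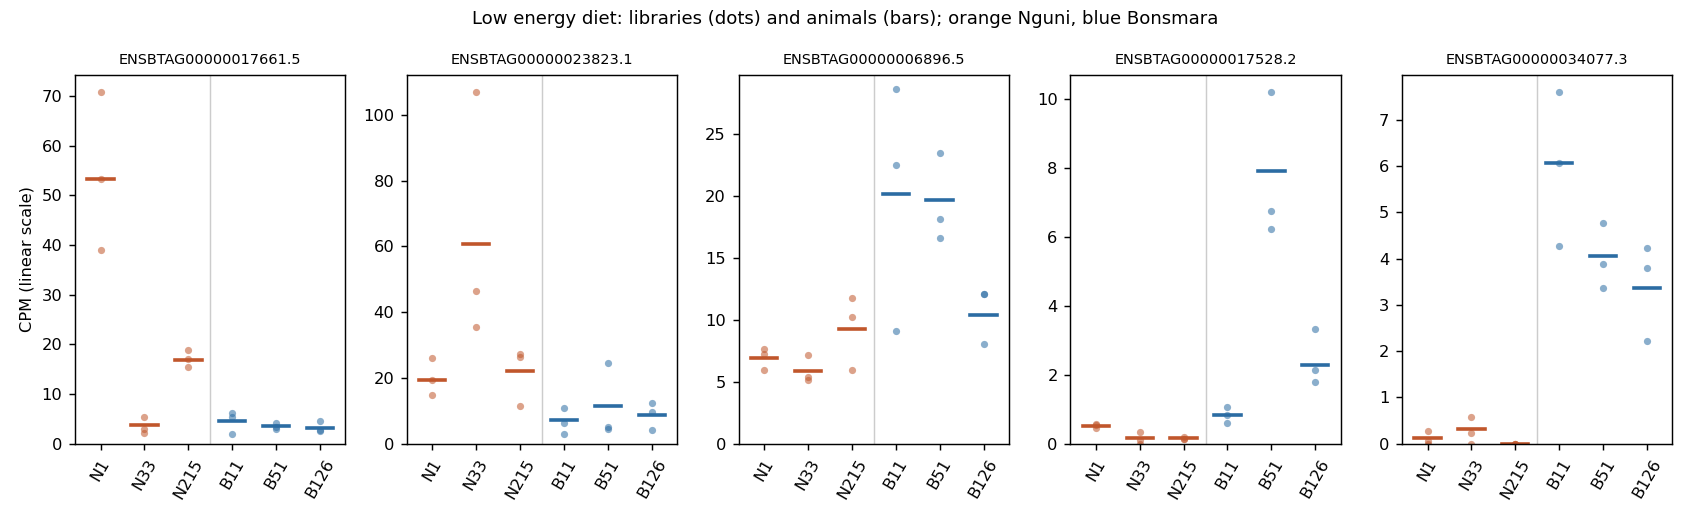
Levels of 5 genes on the low energy diet in CPM (linear axis from 0, own scale in each panel), with a bar for each animal, orange Nguni and blue Bonsmara, and a dot for each of its 3 libraries. ENSBTAG00000017661.5 is high in N1 and N215 only, ENSBTAG00000017528.2 mostly in B51, and ENSBTAG00000034077.3 lies near 0 in every Nguni library and at 2.21 to 7.59 CPM in the Bonsmara ones.

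A gene near 0 in one breed was called when single libraries were fitted. ENSBTAG00000034077.3, chosen after its values were seen, had 0.116 CPM in N1, 0.315 in N33 and 0 in N215, against 6.06 in B11, 4.04 in B51 and 3.37 in B126. None of the 9 Nguni libraries exceeded 0.577 CPM, and none of the 9 Bonsmara libraries was below 2.21 CPM. Limma voom on the libraries, with the animal as a random effect, gave an adjusted p of 0.0137. EdgeR on the summed animals gave a log2 fold change of -5.09 ± 1.81 and an adjusted p of 0.956, and DESeq2 an adjusted p of 1. Over the alternatives the adjusted p ran from 0.0127 to 1. On high energy, 4 Nguni had 0 to 0.0857 CPM, while N37 had 4.04 CPM. The 3 Bonsmara had 5.09, 6.88 and 3.83 CPM there. All 6 Bonsmara with counts thus had at least 3.37 CPM, and 7 of the 8 Nguni with counts had at most 0.315. The difference between the diets was -2.42 ± 2.15 (edgeR adjusted p = 0.859).

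DESeq2 called ENSBTAG00000047768.1, also chosen after its values were seen, with an adjusted p of 2.2e-05, but its counts lay in few animals and few libraries. N33 had 123 CPM, N1 3.93 and N215 0, and all 3 Bonsmara had 0. Even within N33 the libraries had 1715, 156 and 1660 counts, and N1 had 170 counts in N1_3 and 0 in the other 2. On high energy N11 had 46.6 CPM and N37 59.1, the other 3 Nguni 0, and the Bonsmara 1.16, 13.1 and 0. There too the counts sat in single libraries, with 1415, 59 and 0 in those of N11 and 2102, 48 and 0 in those of N37. The edgeR adjusted p on low energy was 0.956, and limma voom on the libraries gave an adjusted p of 0.984.

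Genes with counts in only one breed gave a further view. On low energy, 862 of the 20791 genes listed had counts in Nguni and none in Bonsmara. Of the 862, 701 were counted in a single animal, 493 in N215 alone, 129 in N1 alone and 79 in N33 alone. N215 had the most counts of the 6 animals (49599407), and its library N215_2 detected the most genes of the 18 (15116). The part of depth in these counts was not tested, and no level for chance was set. In the other direction, 553 genes had counts in Bonsmara only, 419 of them in a single animal (132 in B11, 137 in B51 and 150 in B126). Counts in all 3 animals of one breed and none of the other were found for 21 genes in Nguni and 29 in Bonsmara. They were few, at most 47 counts in any Nguni and 17 in any Bonsmara. With the other breed's high energy animals added, 2 of the 21 and 1 of the 29 were still at 0 there. No gene was above 0.5 CPM in all 3 animals of one breed and at 0 in the other.

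A single gene, ENSBTAG00000040065.2, had at least 10 counts in each animal of one breed and 0 in the other. It was chosen after its values were seen. B11, B51 and B126 had 17, 13 and 12 counts, or 0.545, 0.302 and 0.244 CPM, and each Nguni had 0. In each Bonsmara all of the counts were in the library numbered 3. Taken over the group, 42 of 113908142 counts against 0 of 121453396 (with a floor of 3 counts over the group) is at least 14.9-fold higher in Bonsmara, for counting error only. EdgeR gave an adjusted p of 0.956. On high energy it was at 0 in B6 and B25 and had 0.505 CPM in B199, from 11 counts in B199_1 and 13 in B199_3. N37 had 0.660 CPM, from 24 counts in N37_3.

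The high energy animals share no animal with the low energy ones, so they show whether the same genes leaned the same way. The p-values of both diets came from the same fit, with a shared estimate of the spread of each gene. On high energy, 1154 genes (8.73%) had an unadjusted p under 0.05. Of the 478 low energy genes, 338 had the same sign on high energy (70.7%), against 51.9% of all genes tested. They were 204 of the 283 higher and 134 of the 195 lower genes. Without N215_2 and N008_3 the share was 71.3% (477 of 669), against 51.3% of all genes. The size did not carry over: the higher genes had a median log2 fold change of 0.89 on low energy and 0.18 on high, and the lower ones -0.97 and -0.22. Larger values on low energy are fixed by choosing the genes there.

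An unadjusted p under 0.05 on both diets was found for 52 genes, 10.9% of the low energy genes and 4.51% of the high energy ones, beside the 8.73% of all genes on high energy. Of these, 44 had the same direction, 28 higher and 16 lower in Nguni, and 8 the opposite. Library N215_2 reached into this set. Of the 28, 10 were in the set at least 8-fold higher in N215_2 than the mean of the other libraries of N215. Of the 21 genes at a p under 0.05 on low energy that were over 4-fold higher on both diets, 17 were in that set. Without N215_2 and N008_3, 66 genes were at a p under 0.05 on both diets. They were 9.87% of the low energy genes, beside 9.58% of all genes on high energy. Of the 66, 56 had the same direction, 31 higher and 25 lower. With or without these libraries, both p-values of a gene rest on the same estimate of its spread, so they are not independent. The shares of all genes, 8.73% and 9.58%, are therefore not levels for chance. Breeds that did not overlap on low energy (1187 genes) also did not overlap on high energy for 64 genes, 5.39%, beside 6.02% of all genes. Of these, 28 were higher in Nguni on both, 27 lower on both and 9 opposite.

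**Figure D4:**
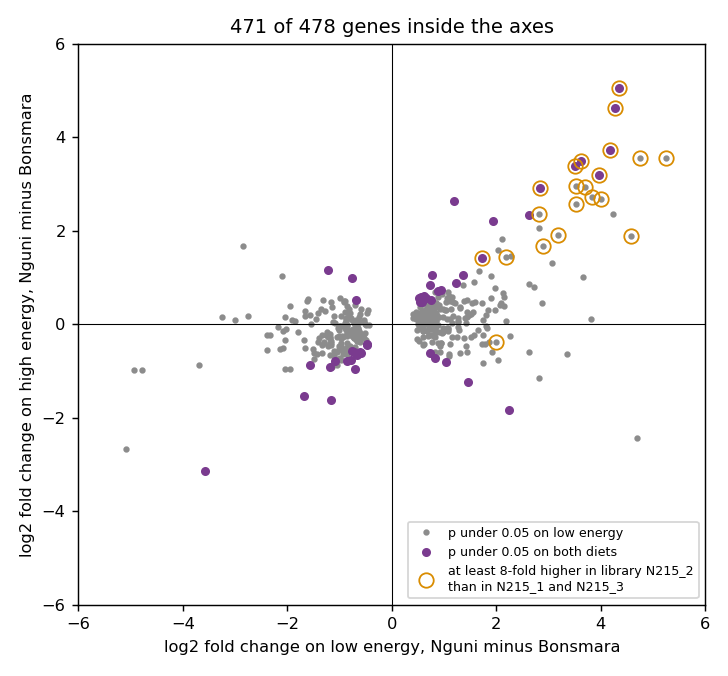
Log2 fold change, Nguni minus Bonsmara, on low energy (horizontal) and on high energy (vertical) for 471 of the 478 genes with an unadjusted p under 0.05 on low energy. Purple points also have one on high energy. Rings mark genes at least 8-fold higher in N215_2 than the mean of the other libraries of that animal. The ringed genes hold 17 of the 21 genes over 4-fold higher on both diets.

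The test of whether the breed difference itself changed with the diet gave 0 of 13219 genes at an adjusted p under 0.05 (0.0%) by edgeR, with a smallest adjusted p of 0.855. At an unadjusted p under 0.05 there were 552 genes (4.18%). A breed difference particular to low energy was therefore not found for any gene, which does not show that the breeds responded alike.

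The count of genes at an unadjusted p under 0.05 moved with single animals. It ranged from 205 without B51 to 1045 without N215, with 982 without N1 and 294 without B126. Of the 478 genes, 472 kept their sign in all 6 fits that left out an animal. The 478 were chosen in the fit that holds all of these animals, so a kept sign was largely fixed by the choice. Among the 478, 51 genes had an unadjusted p under 0.05 in each of the 6 fits, 28 higher and 23 lower in Nguni. Of these 51, 42 had the same sign on high energy, beside 51.9% of all genes tested.

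**Figure D5:**
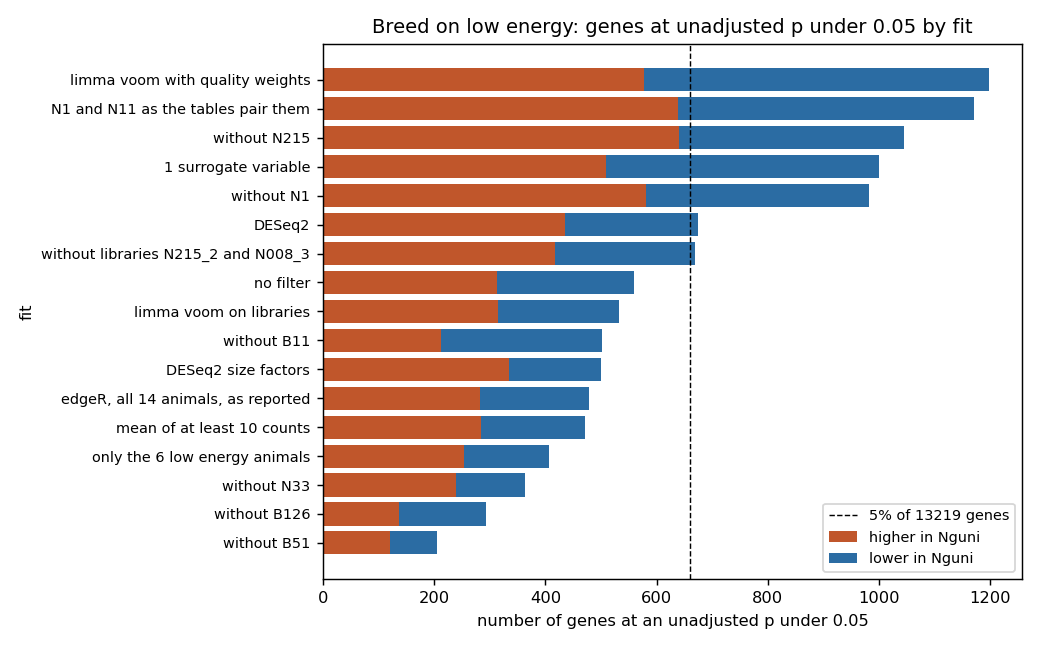
Number of genes with an unadjusted p under 0.05 for breed on low energy in each fit named on the vertical axis, orange higher and blue lower in Nguni, with a dashed line at 5% of the 13219 genes. The fit reported here (478 genes) lies left of the line, and the counts run from 205 without B51 to 1198 with limma voom and quality weights. Some fits tested other numbers of genes, such as 17834 with DESeq2 and 11340 with limma voom on libraries. For those fits the line is not at 5% of the genes tested.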

How the data were processed

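The authors deposited gene-level estimated counts in 4 tables of group pairs. Salmon, Trimmomatic, FastQC and DESeq2 are the tools in the submitters' processing notes. Build, annotation and strandedness: not given in the sources used here. Each of the 42 libraries stands in 2 tables with identical values and was taken once (0 columns differed), and 14 labelled samples were not analysed here. All values were whole numbers.

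The 3 libraries of each stem were summed. Genes were filtered with filterByExpr (minimum count 10), which kept 13219 genes with 99.97% of counts, and scaled by TMM (factors 0.791 to 1.21). One robust quasi-likelihood model in edgeR 4.0.16 (R 4.3.3) with 4 group means over all 14 animals gave the breed contrasts and their difference, with 10 residual degrees of freedom, a common coefficient of variation of 0.414 and Benjamini-Hochberg adjustment over all genes tested. CPM are per scaled total, and log2 values add 0.5.

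Alternatives were DESeq2 1.42.0, limma 3.58.1 voom, sva 3.50.0, other scaling and filters, the tables' placing of N1 and N11, and leaving out animals or libraries. The edgeR, DESeq2 and limma voom fits were tested on simulated counts, and the other steps were not. The members, lists and rules were chosen with earlier results of these data known. By rule, of IDs without a name the 2 of smallest p in each direction were printed. The 28 gene lists were not tested because 0 IDs matched a name.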

Additional observations from a re-analysis of the deposited data

Results flagged for a closer look

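Among the 5 Nguni on high energy, N37 stood apart from the other 4 for 2 of the genes given by ID. ENSBTAG00000034077.3 was at 4.04 CPM in N37, and the gap to the next animal was 0.979 of the range of the group. ENSBTAG00000040065.2 was at 0.660 CPM in N37 and at 0 in the other 4, a gap of 1.0 of the range, which any level above 0 would give. It rests on 24 counts in the library N37_3. Dixon's critical value for 5 animals is 0.710. There were 7 such groups of values tested, and chance alone sets apart an animal in about 1 in 20.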

How the results depend on the processing

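Of 164 values under 17 alternatives, 151 kept their direction and side of the threshold. Another 10 were counts of genes that moved, either by over 1.5 times or from 0 to 1. A further 3 passed the threshold that had not, and none turned in direction. All 114 values of single genes kept their direction, which was largely fixed by choosing these genes in the same data. The count of genes at an adjusted p under 0.05 was 1 with DESeq2, 1 with limma voom on libraries and 1 with that fit and a replicate block of library numbers, and 0 in the others, including all fits that left out an animal. The count at an unadjusted p under 0.05, 478 as reported, was 1000 with 1 surrogate variable, 1170 with N1 and N11 as the tables place them and 1198 with limma voom and quality weights. Leaving out an animal gave 205 to 1045. The cause of these changes was not tested. The replicate block, chosen after seeing the data, gave 493 genes. Library numbers did not pair the libraries: deviations of same-numbered libraries of different animals had a median r of 0.0017 (273 pairs), and other-numbered ones 0.0003 (546 pairs). The diet difference of the breed effect had 0 genes called in all 16 alternatives that could give it. With 3 animals a side, genes under 1 CPM were the least well bounded.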
